A study of Mus musculus with 3 samples.

Results

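The chromatin of 6 core pluripotency genes, Pou5f1, Nanog, Sox2, Klf4, Sall4 and Lin28a, was examined in mouse primordial germ cells, from which eggs and sperm later form. For each gene, the called regions of trimethylated lysine 4 on histone H3 (H3K4me3) and of trimethylated lysine 27 (H3K27me3) that overlapped a fixed window of genome build mm9 were taken. The windows measured 20 to 50 kb and 200.0 kb in all. They held 32 of the 47928 H3K4me3 regions in the genome and 3 of the 18731 H3K27me3 regions. The germ cells came from crosses of an Oct4:GFP transgenic B6 line with Swiss-Webster females, at E11.5. Gonadal regions of several embryos were pooled, and cells with green fluorescence were sorted. A pair of aliquots, of 104000 and 97000 cells, was divided among a precipitation for H3K4me3, a precipitation for H3K27me3 and an input control. Each mark has 1 deposited list that stands for 2 replicates, so no value below has an error between replicates and no test was possible, and the input was not analysed here.

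Pou5f1 (also called Oct4) encodes a POU-domain transcription factor that binds DNA together with SOX2, an HMG-box factor, and this pair with the homeodomain protein NANOG maintains the pluripotent state. KLF4 and SALL4 are zinc-finger factors of the same network, and LIN28A is an RNA-binding protein that blocks maturation of let-7 microRNAs. Germ cells of the early gonad are known to express several of these genes although they are committed to the germ line. H3K4me3 is typical of active or CpG-rich promoters, while H3K27me3 is deposited by Polycomb complexes at repressed genes, and sequence with both marks is called bivalent. The sorting reporter is driven by Oct4 sequence, so the cells were selected for activity of that sequence. How much Pou5f1 sequence the transgene carries is not given in the sources used here, and reads from the transgene and from the gene itself cannot be told apart in the lists.

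All 6 windows carried H3K4me3, and 1 of them, that of Klf4, also carried H3K27me3. The windows of Pou5f1, Nanog, Sox2, Sall4 and Lin28a thus fell in the class H3K4me3 alone (5 windows), Klf4 in the class both (1 window), and 0 windows in the classes H3K27me3 alone or none. A window was counted for a mark when a region of that mark covered at least 1 bp of it. For comparison, of 88486 adjoining windows of 30 kb laid over the whole genome, 29.9% held H3K4me3, 21.1% held H3K4me3 alone and 8.82% held both marks. Most of these windows contain no promoter, whereas the 6 windows were placed at genes, so the comparison does not set the 6 beside other genes. Of the 6 windows, all with H3K4me3, 1 also held H3K27me3, against 29.5% of the genome windows that held H3K4me3. Among the 2746 genome windows with at least 4.2 kb of H3K4me3, the lowest value of the 6 windows, the share with H3K27me3 was 35.9% (95% Wilson interval 34.2 to 37.8%, counting error only). With 6 windows, a count of 1 does not separate these genes from that share.

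**Figure D1:**
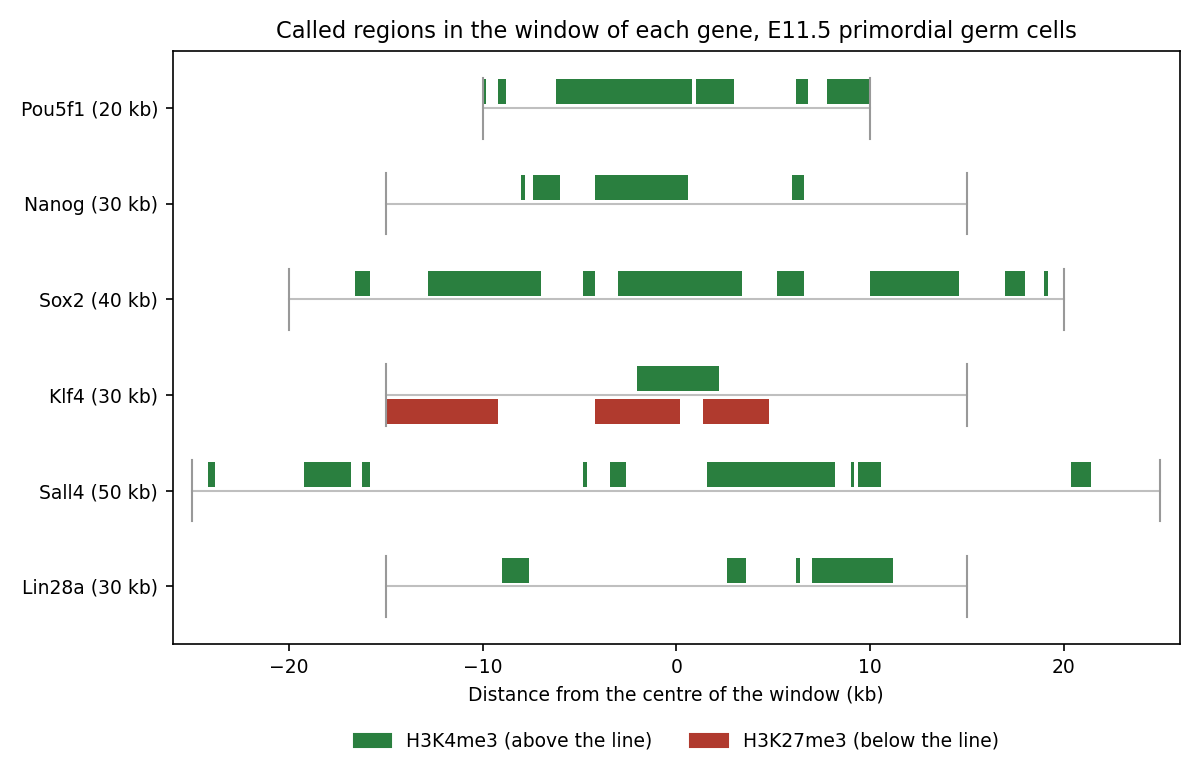
Map of called regions in the window of each gene. The horizontal axis gives distance from the centre of the window in kb, vertical ticks mark the ends of each window, H3K4me3 regions are drawn above the line and H3K27me3 regions below it, cut at the ends of the window. H3K27me3 appears in the Klf4 window and in no other of the 6, and each window has at least 1 H3K4me3 region over 4 kb.

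Pou5f1 and Sox2 had the densest H3K4me3 of the 6 windows. Reads from the Oct4:GFP transgene cannot be told from those of Pou5f1 itself, so their part in the Pou5f1 values is unknown. At Pou5f1, regions covered 12.4 kb of its 20 kb window, or 62.0%, and H3K27me3 covered none of it. Its order against Sox2 (52.0% of 40 kb) depended on the window: with all windows widened by 10 kb on each side, H3K4me3 covered 34.5% at Pou5f1 and 36% at Sox2. With all windows narrowed by 5 kb on each side, the order was kept, at 78% for Pou5f1 and 62.7% for Sox2. The leading region lay on chromosome 17 (35638801 to 35645800) and measured 7.0 kb. It was the widest of the 2380 H3K4me3 regions on chromosome 17, and 83 of all 47928 regions (0.173%) were at least as wide. A second region of 2.0 kb (35646001 to 35648000) followed after a gap of 200 bp, which is 1 step of the grid on which the regions were called. Joined across gaps under 1 kb, they formed a stretch of 9.2 kb. The remaining 4 regions measured 400, 400, 600 and 2200 bp, and the first of them lay across the edge of the window with 200 bp inside. Of 132732 genome windows of 20 kb, 20 held at least as much H3K4me3 as the Pou5f1 window. Here and for the other genes, the genome windows were laid without regard to genes and can cut through a group of regions. The 6 windows were placed at genes, so such counts are a description only. The nearest H3K27me3 regions lay 27 kb before the window (2000 bp wide) and 22.6 kb after it (400 bp wide). H3K27me3 was not scarce in the wider neighbourhood, where the 0.5 Mb on each side together held 102.8 kb of it and 106.4 kb of H3K4me3. The genome averages were 23.8 kb of H3K27me3 and 18.9 kb of H3K4me3 per Mb.

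Sox2 carried the most H3K4me3 by length. Its 40 kb window held 8 regions with 20.8 kb in all, or 52.0% of the window. Of 66360 genome windows of 40 kb, 5 held at least as much. Where the other 5 windows had 1 region over 4 kb each, the Sox2 window had 3, of 5.8 kb (34537201 to 34543000 on chromosome 3), 6.4 kb (34547001 to 34553400) and 4.6 kb (34560001 to 34564600). The middle one, which contained the centre of the window, made up 30.8% of the H3K4me3 length. The other 5 regions measured 200 to 1400 bp, and no gap between neighbours was under 1 kb. The surroundings were sparse in both marks. The flanks of 0.5 Mb on each side held 15.8 kb of H3K4me3 and 1.8 kb of H3K27me3 together, and the nearest H3K27me3 regions were 433.6 kb before and 1381 kb after the window. Of the 5 windows without H3K27me3, that of Sox2 was the farthest from its nearest H3K27me3 region; for the other 4 this distance was 22.6 to 107.0 kb. In the RefSeq gene table (assembly GRCm38.p6) Sox2 lies within the long noncoding gene Sox2ot, so the regions cannot be assigned to either gene.

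Nanog had 4 H3K4me3 regions in a 30 kb window, covering 7.0 kb or 23.3%. The leading region, on chromosome 6 (122655801 to 122660600), measured 4.8 kb, and 455 of all H3K4me3 regions (0.949%) were at least as wide. The others measured 200, 1400 and 600 bp. Of 88486 genome windows of 30 kb, 712 held at least as much H3K4me3. The nearest H3K27me3 region, 1000 bp wide, lay 76.4 kb after the window.

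Sall4 had 9 H3K4me3 regions in a 50 kb window, covering 13.2 kb or 26.4%. The leading region, on chromosome 2 (168586601 to 168593200), measured 6.6 kb, and 115 regions of the list (0.240%) were at least as wide. Regions of 200 and 1200 bp followed it after gaps of 800 and 200 bp, and together they made a stretch of 9.0 kb when gaps under 1 kb were joined. Of the 9 regions, 4 measured at most 400 bp. Of 53085 genome windows of 50 kb, 148 held at least as much H3K4me3. The nearest H3K27me3 regions lay 107.0 kb before and 109.2 kb after the window, and the flanks of 0.5 Mb on each side held 72.6 kb of H3K27me3.

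Lin28a had 4 H3K4me3 regions in a 30 kb window, covering 6.8 kb or 22.7%. Its leading region, on chromosome 4 (133572001 to 133576200), measured 4.2 kb, and a 200 bp region lay 600 bp before it. The other regions measured 1400 and 1000 bp. In coverage and in the number of regions this window was close to that of Nanog, with 795 of the 30 kb genome windows holding at least as much H3K4me3. H3K27me3 was nearest 36.2 kb after the window, in a region of 400 bp, and 435.6 kb before it.

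Klf4 differed from the other 5 in both marks. Its 30 kb window held 1 H3K4me3 region, of 4.2 kb (55543001 to 55547200 on chromosome 4), which covered 14.0% of the window, the lowest share of the 6. The window held 3 H3K27me3 regions, covering 13.6 kb or 45.3%, and 1412 of 88486 genome windows of 30 kb held at least as much. The H3K4me3 region was as wide as the leading region of Lin28a on the same chromosome. When gaps under 1 kb were joined, it stayed at 4.2 kb while that of Lin28a grew to 5.0 kb, which left Klf4 with the narrowest leading region of the 6. A 4.4 kb H3K27me3 region (55540801 to 55545200) covered the first 2.2 kb of the H3K4me3 region, and a 3.4 kb region (55546401 to 55549800) covered its last 800 bp. Between these H3K27me3 regions lay a gap of 1200 bp that carried H3K4me3 and no called H3K27me3. In all, 3.0 kb of the H3K4me3 region, or 71.4%, was also inside H3K27me3, and the shared sequence was 22.1% of the H3K27me3 length in the window. Of the 2 shared segments, that of 800 bp equalled the median of the 9132 segments that carried both marks in the genome, and that of 2.2 kb was longer, with 93.7% of those segments at most as long.

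The H3K27me3 at Klf4 continued past the window. The remaining H3K27me3 region, 11.4 kb wide (55524401 to 55535800), had 5.8 kb inside the window and the rest before it, and 969 of the 18731 H3K27me3 regions (5.17%) were at least as wide. A 1200 bp H3K4me3 region (55527201 to 55528400), 1.6 kb before the window, lay wholly inside it. An 800 bp H3K27me3 region began 400 bp after the window. The flanks of 0.5 Mb on each side held 70.0 kb of H3K27me3, against 23.8 kb per Mb in the genome, and 13.6 kb of H3K4me3, against 18.9 kb. Such flanks were not particular to Klf4, since those of Pou5f1 and Sall4, whose windows held no H3K27me3, had 102.8 and 72.6 kb of it. The marks were precipitated separately from pooled cells, so cells with either mark and cells with both cannot be told apart at Klf4.

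**Figure D2:**
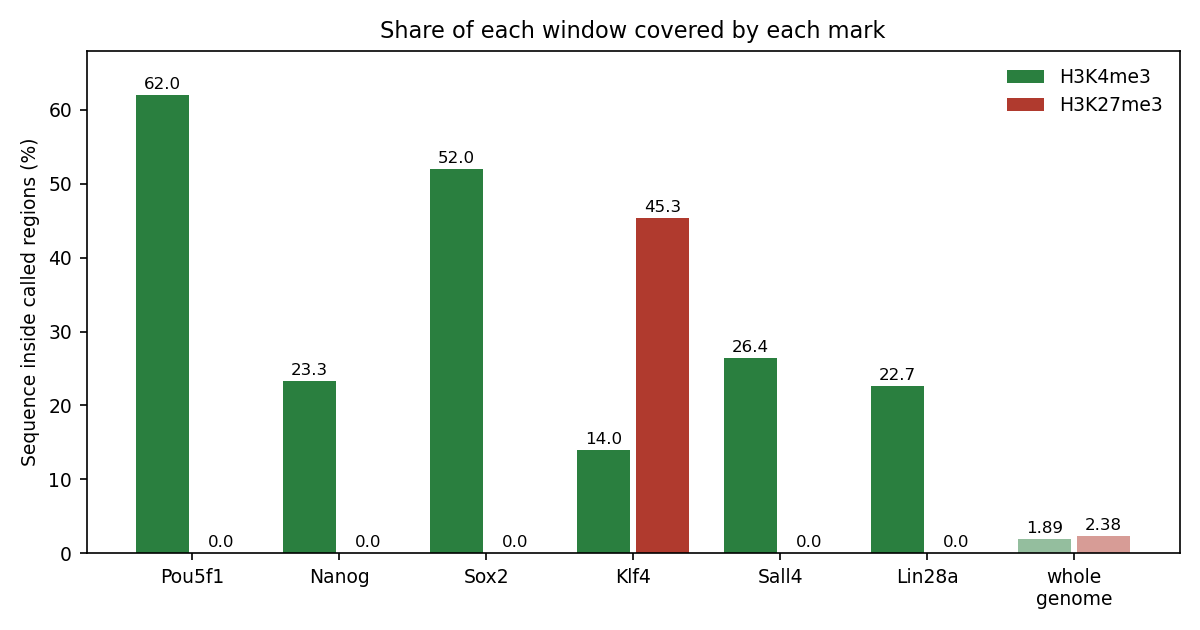
Bars give the percent of each window inside called H3K4me3 and H3K27me3 regions, and the paler bars at the right give the percent of the whole genome. H3K4me3 covered 14.0 to 62.0% of the windows, all above the 1.89% of the genome, and H3K27me3 covered 45.3% of the Klf4 window and 0% of the other 5.

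H3K4me3 regions of the 6 windows mixed wide regions with short ones. Of the 32 regions, 8 (3 of them at Sox2) were wider than 4 kb, against 1.51% of all H3K4me3 regions. At the other end, 9 of the 32 measured at most 400 bp. The median width was 1000 bp, compared with 800 bp for the whole list, so the middle of the widths lay close to the list. The 4 kb limit was set with the widths known, just below the narrowest leading region of 4.2 kb. Each window was thus bound to count at least 1 region over it, and the whole list was not limited to regions at genes. The share over 4 kb is therefore a description only. By width of the leading region the genes ordered as Pou5f1 (7.0 kb), Sall4 (6.6 kb), Sox2 (6.4 kb), Nanog (4.8 kb), then Klf4 and Lin28a (4.2 kb each). With gaps under 1 kb joined, Lin28a (5.0 kb) passed Nanog (4.8 kb), and Pou5f1 (9.2 kb) and Sall4 (9.0 kb) kept the first places. Before joining, neighbours among the first 3 differed by 1 or 2 grid steps of 200 bp, and the error of a boundary is unknown without read counts. Of the 725 H3K4me3 regions of at least 4.2 kb in the genome, 18.2% overlapped H3K27me3 (95% Wilson interval 15.6 to 21.2%), and among the 8 here the Klf4 region did. Summed over the windows, H3K4me3 covered 64.4 kb (32.2%) and H3K27me3 13.6 kb (6.80%), against 1.89% and 2.38% of the genome. All of this H3K27me3 lay in the Klf4 window, so its sum does not describe the set. The windows were placed at genes, which the genome values were not.

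**Figure D3:**
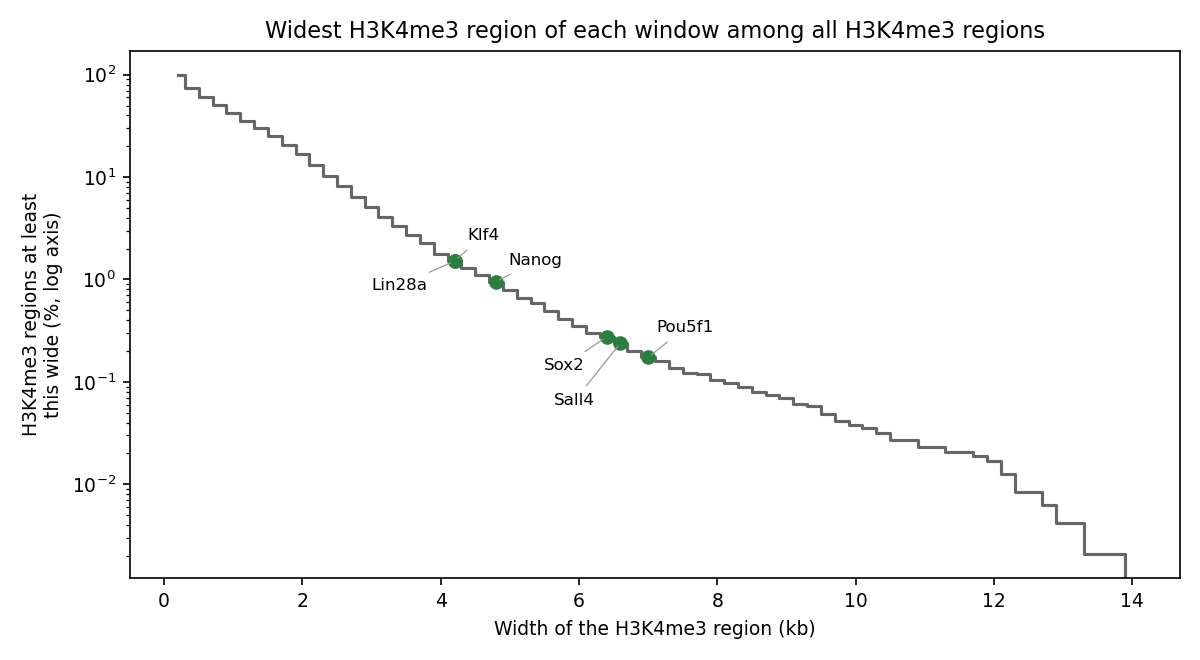
The grey line gives the percent of all H3K4me3 regions that are at least as wide as the width on the horizontal axis (kb), on a log vertical axis. Points mark the widest region of each window, with Klf4 and Lin28a at the same place; the 6 points lie between 0.173% (Pou5f1) and 1.51% (Klf4 and Lin28a).

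Widths were also set beside the length of each gene in the RefSeq table of assembly GRCm38.p6, whose coordinates were not used. The leading region was longer than the gene for Pou5f1 (7.0 kb against a gene of 4746 bp) and Sox2 (6.4 kb against 2467 bp). It was shorter than the gene for Nanog (7145 bp), Klf4 (5339 bp), Sall4 (18870 bp) and Lin28a (15867 bp). The table places each gene on the chromosome of its window, for 6 of 6. It lists Tcf19 as the next gene after Pou5f1, Slc2a3 after Nanog, Atp9a before Sall4, Dhdds before Lin28a and the noncoding Gm12506 after Klf4. The next genes on the opposite sides, and those beside Sox2, are not named here. As Sox2ot does with Sox2, the noncoding Gm14261 overlaps Sall4. Some regions in the windows may lie at such neighbours, which was not tested, because no mm9 annotation was used here.

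Promoter sequences, which the choice of windows did not use, were available from RefSeq (GRCm38.p6) for 5 of the 6 genes, as 250 bases before and 50 bases after the gene's outermost listed start. Sall4 is named only. The number of CpG dinucleotides, a sequence feature tied to both H3K4me3 and Polycomb at promoters, ranged widely and is set beside that of all 27025 promoters in the table. Klf4 had 40 CpGs, more than 96.2% of promoters. Sox2 had 27, more than 84.6%. Pou5f1 had 11 and Lin28a 10, more than 58.1% and 56.0% of promoters. Nanog had 4, more than 31.9% of promoters and below the median of 7. H3K4me3 was called in the windows of all 5 genes, and of their promoters that of Nanog alone was below the median. Pou5f1 and Nanog had 2 listed promoters each, of which 1 was used. The window with H3K27me3 belonged to the gene with the most CpGs of the 5, while Sox2, the next in CpG count, had H3K4me3 alone. A link between CpG count and class was not tested, as 1 window of the 5 held H3K27me3. The promoters of Klf4, Sox2 and Nanog are shown to make the range of CpG counts visible. They run 5′ to 3′ on the strand of the gene (minus for Klf4, plus for the others), with each CpG in capitals:
Klf4: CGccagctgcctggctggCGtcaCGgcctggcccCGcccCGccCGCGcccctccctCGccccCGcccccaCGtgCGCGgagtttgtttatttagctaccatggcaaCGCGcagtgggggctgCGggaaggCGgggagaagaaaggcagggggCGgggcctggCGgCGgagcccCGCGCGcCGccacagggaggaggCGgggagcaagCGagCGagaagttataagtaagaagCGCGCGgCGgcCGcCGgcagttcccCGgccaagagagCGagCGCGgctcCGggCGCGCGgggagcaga
Sox2: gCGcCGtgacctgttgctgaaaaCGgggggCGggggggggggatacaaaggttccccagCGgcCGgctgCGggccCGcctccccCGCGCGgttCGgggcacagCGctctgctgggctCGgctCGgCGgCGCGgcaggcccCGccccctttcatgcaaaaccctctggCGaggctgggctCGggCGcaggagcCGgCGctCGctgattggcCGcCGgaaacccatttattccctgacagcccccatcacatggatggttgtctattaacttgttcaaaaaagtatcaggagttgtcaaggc
Nanog: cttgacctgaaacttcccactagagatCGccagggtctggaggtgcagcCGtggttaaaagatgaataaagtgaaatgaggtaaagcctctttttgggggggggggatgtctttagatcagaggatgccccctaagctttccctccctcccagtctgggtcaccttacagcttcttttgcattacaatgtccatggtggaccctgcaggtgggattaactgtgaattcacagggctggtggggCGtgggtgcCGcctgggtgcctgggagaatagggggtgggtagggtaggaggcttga

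**Figure D4:**
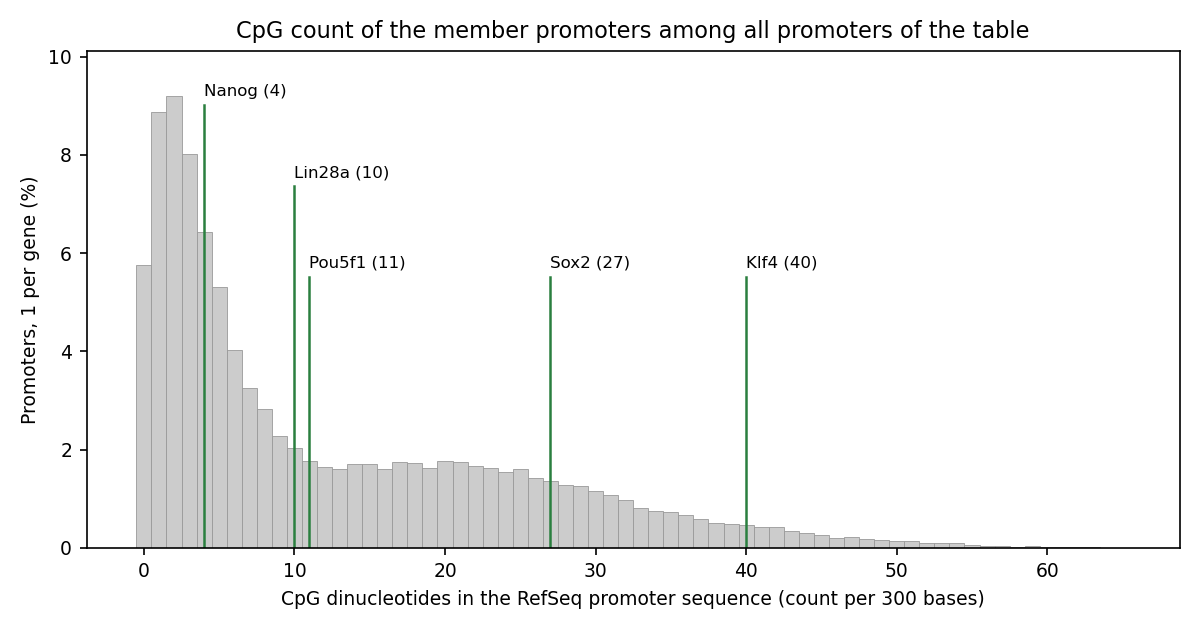
Grey bars give the percent of 27025 RefSeq promoters (1 per gene) at each number of CpG dinucleotides per 300 bases, and green lines mark Nanog (4), Lin28a (10), Pou5f1 (11), Sox2 (27) and Klf4 (40). The 5 genes spread from below the median of 7 to the upper tail.

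Short motifs of factors encoded by these genes and of general promoter elements were looked for on both strands of the same sequences. The octamer core TTTGCAT, bound by POU factors such as OCT4, was found in the Nanog and Sox2 promoters and in 4.60% of all promoters. The SOX core ACAATG was found in those of Nanog and Lin28a and in 12.8% of all. In Nanog the cores were joined, with the octamer core followed after 1 base by the SOX core, and of the 27025 promoters the one of Nanog was alone in holding exactly these letters. The letters were set before the search, and 1 promoter of 300 bases was searched per gene. Variants of the joined cores and other positions were not searched, so the element is not shown to be particular to Nanog. This joined element is a known binding site of OCT4 and SOX2 in the Nanog promoter. It starts 75 bases before the listed start and is shown in capitals with 8 bases on each side, the cores and the base between them being its 14 letters:
Nanog element: cagcttctTTTGCATTACAATGtccatggt
The GC box GGGCGG, bound by SP and KLF factors, occurred 4 times in the Klf4 promoter, 2 times in that of Sox2 and 1 time each in those of Pou5f1 and Lin28a, and 35.9% of all promoters held it. The CCAAT box was found in those of Pou5f1 and Sox2 (38.0% of all), and the TATA box TATAAA in 0 of the 5 (14.2% of all). Matches are descriptions of letters and not of binding in these cells. Whether a called region covers these promoters was not tested, since the lists are on mm9.

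Of 18 further genes of the pluripotency network, 11 had a promoter in the table, with 2 to 32 CpGs and a median of 17, and 8 of the 11 were above the median of all promoters. Their chromatin classes were not analysed here, because their mm9 positions were not at hand.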

How the data were processed

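Reads were handled with Bowtie 0.12.7 on mm9, per the submitters' processing notes. For each mark the authors deposited 1 list of contiguous ChromHMM regions (a hidden Markov model segmentation of the genome), which holds positions in bp and neither counts nor scores. Every boundary was a multiple of 200 bp, and both lists ended inside the mm9 chromosome lengths of GenomeInfoDb 1.38.1. ChromHMM settings, use of the input and merging of replicates are unknown from the sources used here, as is depth. Per the labels' protocols, cross-linking was in 0.25% formaldehyde for 10 min, and precipitated DNA was amplified for 20 cycles.

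The windows came from the rule for these 6 genes. The members, lists and comparisons were chosen with earlier results of these data known. All 6 genes were named. Lengths are of region parts inside a window, widths of whole regions, printed counting from 1. The background was tiles covering the genome from the first base of each chromosome, mitochondrial genome left out. The 4 kb and 4.2 kb limits were chosen after seeing the data. Alternatives were other tile sizes and offsets, regions wider than 400 bp, regions joined over 1 kb, an overlap of 400 bp, whole regions, lists without identical ends, the same chromosome only, and windows widened by 10 kb or narrowed by 5 kb on each side. Values were called alike within 1.5 times, and percentages within the 95% Wilson interval. The code recovered the class and lengths of 100 of 100 simulated windows. Software was R 4.3.3, matplotlib 3.10.9, scipy 1.17.1, pandas 2.3.3, numpy 2.4.6 and Python 3.11.15.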

Additional observations from a re-analysis of the deposited data

How the results depend on the processing

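The class of each gene was alike under all 6 alternatives run for it (6 of 6 windows each time). This followed from the values above and is no separate support. Each window had an H3K4me3 region of at least 4.2 kb, and the H3K27me3 regions at Klf4 measured at least 3.4 kb. For the other 5 windows the nearest H3K27me3 lay at least 22.6 kb away, beyond the widening of 10 kb. Of 152 alternative values for 36 results, 132 stayed alike and 20 moved. These were lengths, counts and percentages without a sign, so a change of direction could not be seen in them. With windows narrowed by 5 kb, H3K4me3 at Pou5f1 covered 7800 bp in place of 12400 and H3K27me3 at Klf4 8600 bp in place of 13600, since both reach the edges. The share of genome tiles with H3K4me3 alone (21.1% at 30 kb) was 17.3% for tiles of 20 kb, 25.6% for 50 kb and 70.5% among tiles with H3K4me3. The share with both (8.82%) was 6.22%, 13.6% and 29.5% in the same order. The other moved values were width percentiles. When gaps under 1 kb were joined, the leading region grew to 9200 bp at Pou5f1, 9000 bp at Sall4 and 5000 bp at Lin28a, and kept its width at the other 3 genes. In windows widened by 10 kb, H3K4me3 covered 34.5% at Pou5f1 and 36% at Sox2, which turned their order. In windows narrowed by 5 kb it covered 78% and 62.7%, which kept it. Leaving out a replicate was not possible with 1 list per mark. The marks came from the same pair of aliquots, but no paired analysis was possible because the lists do not give the replicates apart. The lists give no depth, so a mark that was not called is not shown to be absent.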
